A study of Homo sapiens with 24 samples.

Results

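The genes described here are 48 growth factor receptors, growth factor ligands, RAS-MAPK components and ERK-induced genes, out of 16742 genes named in at least 1 of the 4 deposited mRNA tables. The members were a fixed list of gene symbols, kept where a table lists the gene with a mean of at least 10 normalised reads. All 48 met this in at least 1 table, and 40 met it in all 4 tables. They comprised 13 receptors, 10 ligands, 6 genes of the RAS-RAF-MEK-ERK core, 11 feedback inhibitors and 8 immediate early, ETS and other ERK-induced genes.

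The mRNA of human cell lines with and without extra chromosomes was sequenced in 24 libraries, in 8 groups of 3. HCT116 is a near-diploid colon carcinoma line with a modal chromosome number of 45, and HCT116 5/4 is a derivative with 4 copies of chromosome 5. HCT116* is HCT116 expressing the histone fusion H2B-GFP, for whose parental stock the study's list of cell lines names another source than for HCT116 and HCT116 5/4, and HCT116* 8/3 c7 is a clone of it with 3 copies of chromosome 8. RPE1 is a retinal pigment epithelial line immortalised with hTERT, with a modal number of 46, and RPE1 5/3 12/3 carries 3 copies of chromosomes 5 and 12. RPE1* expresses H2B-GFP, and RPE1* 21/3 carries 3 copies of chromosome 21. Microcell-mediated chromosome transfer gave the aneuploid lines other than HCT116 5/4, which was made in another laboratory. HCT116* 8/3 c7 is 1 clone from a single cell, and the extra chromosome 12 of RPE1 5/3 12/3 was gained spontaneously. Within each parental line there is 1 derivative for each gain, so a gained chromosome and a line cannot be told apart. Chromosome 5 was gained in both HCT116 5/4 and RPE1 5/3 12/3, at different copy numbers. The labels name no treatment, and they give growth in medium with 5% fetal calf serum, itself a source of growth factors, for all groups.

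Each table covers 1 aneuploid line with its own parental line, and the value used here is the authors' mean over the 3 aneuploid and 3 parental libraries of the table. A mean of that kind contains both lines. It therefore gives the level of a gene in a parental line background, and the change from a parental line to its aneuploid derivative was not analysed here. No value of a single library was used, so no spread between replicates and no test can be given, and every difference below is a description of 4 means. Levels are written as RPM, the reads per 1000000 of the summed means of the table. The 4 tables were normalised separately by the authors, which applies to each level set across them. Each table is called by its aneuploid line. Values of the HCT116 tables are quoted with HCT116 5/4 first and HCT116* 8/3 c7 second, and those of the RPE1 tables with RPE1 5/3 12/3 first and RPE1* 21/3 second.

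The pathway begins at the cell surface. Growth factors of the EGF, FGF, PDGF and insulin-like families bind receptor tyrosine kinases, and the occupied receptors load RAS with GTP. RAS recruits RAF kinases, which phosphorylate the MEK kinases (MAP2K1 and MAP2K2), and these phosphorylate ERK, one form of which is encoded by MAPK3. ERK induces transcription factors within minutes, and among its later targets are genes that shut the pathway down again: DUSP phosphatases, Sprouty and SPRED proteins and ERRFI1.

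The labelled origins were checked against marker genes. EPCAM was at 218 and 283 RPM in the HCT116 tables, at 0.207 in RPE1 5/3 12/3 and not listed in RPE1* 21/3. CDH1, the epithelial cadherin, was at 87.5 and 126 in the HCT116 tables and listed in neither RPE1 table. CDX2 and KRT20, markers of intestinal epithelium, were listed in the HCT116 tables only, at 17.5 and 19.5 and at 2.11 and 2.54 RPM. The intestinal markers VIL1 and CDX1 were listed in no table, and LGALS4 and GPA33 were listed only in HCT116* 8/3 c7 at under 10 normalised reads. Of the pigment epithelium markers, MITF reached 62.5 and 59.5 and OTX2 31.1 and 22.2 in the RPE1 tables, while TYR was listed in no table. RPE65, the visual cycle enzyme for which the tissue is known, went against the label, with 14.9 and 9.67 RPM in the HCT116 tables and 0.451 and 0.243 in the RPE1 tables. PMEL and SERPINF1 also lay higher in the HCT116 tables, while BEST1, at 0.389 and 0.131 RPM in HCT116 and 1.86 and 2.19 in RPE1, lay higher in RPE1, and RLBP1 was listed in the RPE1 tables only, at 1.41 and 0.252. The RPE1 tables were instead rich in the mesenchymal genes VIM, at 7622 and 5828 RPM, and FN1, at 16005 and 19764. The share of these differences in the member levels below was not tested.

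Levels between the parental lines were set side by side for genes listed in all 4 tables with an average mean of at least 10, which left 12764 genes and 45 of the 48 members. A gene was counted as higher in one parental line when both of its tables lay at least 2-fold above both tables of the other line. The nearest tables are those with the smallest gap between the lines. By this criterion 20 members were higher in HCT116 and 7 were higher in RPE1, beside 17.6% and 8.51% of all genes compared. The median gene lay at -0.37 on the log2 scale (RPE1 minus HCT116), so a part of this imbalance belongs to all genes. When tables were scaled by the median of their gene ratios, which sets that median near 0, 14 members were higher in HCT116 and 8 in RPE1, beside 11.4% and 12.1% of all genes. Under that scaling INSR, PDGFA, NRAS, DUSP4, FOS and ETV5 no longer passed and IGF2R did, toward RPE1. Log2 differences below are given relative to the median gene. Parental line, tissue of origin and transformed state cannot be told apart in this comparison.

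**Figure D1:**
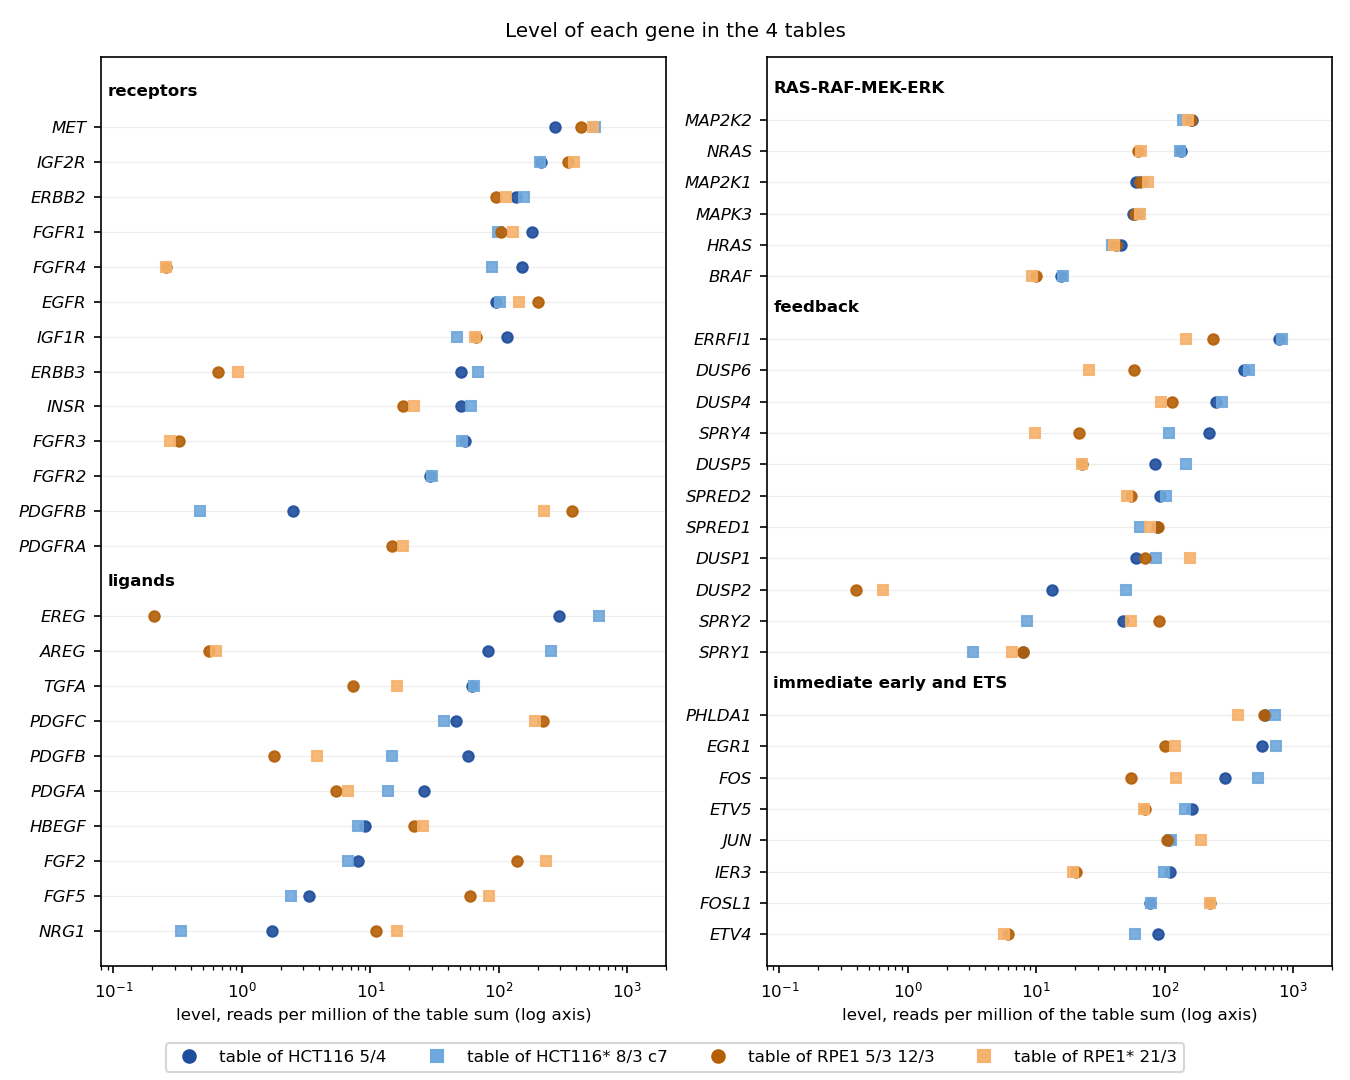
Level of each of the 48 members in the 4 tables, in RPM on a log axis, grouped by role. Each point is the authors' mean over 6 libraries, circles are the lines without H2B-GFP and squares those with it, blue is HCT116 and orange is RPE1, and a missing point is a gene that the table does not list. FGFR4 lies at 150.4 and 87.8 in the HCT116 tables and at 0.256 and 0.255 in the RPE1 tables, whereas the 4 points of MAP2K2 lie between 139 and 161.

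The lines differed in which growth factors of the EGF family they expressed. EREG encodes epiregulin and AREG encodes amphiregulin, both ligands of EGFR, and the genes are neighbours on chromosome 4 with 56386 bases between them (GRCh37). EREG was at 295 and 596 RPM in the HCT116 tables, at 0.206 in RPE1 5/3 12/3 and not listed in RPE1* 21/3, so it entered no comparison across the 4 tables. AREG was at 82.9 and 256 RPM in HCT116 against 0.558 and 0.625 in RPE1. The nearest tables of AREG were 133-fold apart, and its log2 difference relative to the median gene was -7.58. Both values rest on few reads, since its means in the RPE1 tables were 12.9 and 11.8 normalised reads. GRCh37 carries a second copy of AREG, annotated as AREGB, on the same chromosome, and 0 tables list it. How reads were shared between the copies was not given in the sources used here, so the level of AREG is uncertain.

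The upstream sequences of these neighbours are shown because AREG is among the members with the widest gap between the lines. EREG, for which no gap was computed, is shown as its neighbour. The upstream sequence of EGR1 is added, the ERK-induced transcription factor whose promoter is a textbook target of the pathway. Each is the 250 bases before the RefSeq start on the plus strand of GRCh38.p14, and none overlaps the transcript itself. EREG is shown from chr4:74364895-74365144, AREG from chr4:74444886-74445135 and EGR1 from chr5:138465229-138465478. Capitals mark the TATA box TATAAA in EREG and AREG, the cyclic AMP response element TGACGTCA in AREG, and the CArG boxes, the elements that bind serum response factor, in EGR1.
EREG: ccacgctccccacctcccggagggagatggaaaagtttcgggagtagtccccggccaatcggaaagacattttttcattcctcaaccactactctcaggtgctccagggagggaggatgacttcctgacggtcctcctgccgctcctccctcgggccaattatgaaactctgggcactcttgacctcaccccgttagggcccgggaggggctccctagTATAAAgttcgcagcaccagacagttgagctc
AREG: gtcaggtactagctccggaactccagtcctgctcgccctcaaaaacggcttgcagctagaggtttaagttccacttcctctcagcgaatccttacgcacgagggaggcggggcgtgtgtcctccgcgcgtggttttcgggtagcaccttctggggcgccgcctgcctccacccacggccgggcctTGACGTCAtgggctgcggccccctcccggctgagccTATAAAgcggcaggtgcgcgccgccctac
EGR1: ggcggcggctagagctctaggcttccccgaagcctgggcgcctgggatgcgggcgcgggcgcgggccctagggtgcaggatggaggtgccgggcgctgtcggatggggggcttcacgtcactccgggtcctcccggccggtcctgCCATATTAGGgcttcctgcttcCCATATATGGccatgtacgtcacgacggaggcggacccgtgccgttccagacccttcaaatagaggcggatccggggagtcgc
Motifs were searched on both strands. TATAAA lay at bases 32 to 27 before the start of EREG and 29 to 24 before the start of AREG, and the response element lay at bases 65 to 58 of AREG. The CArG boxes of EGR1 lay at bases 105 to 96 and 83 to 74. The set of RefSeq windows used here held 55 windows for 37 of the 48 members, some genes having several starts. The other members were missing from that set and were not searched. TATAAA was present in 7 of the 55 windows (AREG, DUSP1, EGFR, EREG, FGF5, FOS and SPRED2), or 12.7%, and in 10.7% of all 35116 windows. TGACGTCA was present in 2 member windows, of AREG and DUSP1, and in 1.65% of all windows. A CArG box was present in 2 member windows, of EGR1 and PDGFA, and in 1.16% of all windows. These matches describe the letters of the windows only.

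Among the receptors, the nearest tables of 4 genes passed toward HCT116 and of 1 gene toward RPE1, out of 11 compared. That is 36.4% and 9.09%, beside 17.6% and 8.51% of all genes. FGFR4, a receptor for fibroblast growth factors, was at 150.4 and 87.8 RPM in the HCT116 tables and 0.256 and 0.255 in the RPE1 tables. FGFR3, a receptor of the same family, was at 54.5 and 51.4 RPM in HCT116 and 0.324 and 0.277 in RPE1. Both were thus near the lower limit of the RPE1 tables, where they had means under 10 normalised reads, and the folds of 343 for FGFR4 and 158 for FGFR3 between nearest tables rest on those few reads. FGFR2 was listed in the HCT116 tables only, at 29.2 and 30.1. FGFR1, by contrast, was found in all 4 tables, at 179.6 and 97.9 RPM in HCT116 against 104 and 129.5 in RPE1, with overlap between the lines. ERBB3, the partner receptor that signals with ERBB2, was at 50.7 and 68.5 RPM in the HCT116 tables and 0.654 and 0.931 in the RPE1 tables. Its nearest tables were 54.4-fold apart, which rests on means of 15.1 and 17.6 normalised reads in the RPE1 tables. ERBB2 itself was at 137 and 158 RPM in HCT116 and 94.9 and 113 in RPE1 and did not pass. INSR, the insulin receptor, was at 51.0 and 60.7 RPM in HCT116 against 18.0 and 21.9 in RPE1, and its gap of 2.33-fold passed only before the shift of the median gene was taken out.

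PDGFRB was the only receptor that passed toward RPE1. This receptor, known from mesenchymal cells and pericytes, was at 2.49 and 0.475 RPM in the HCT116 tables and 374 and 225 in the RPE1 tables. Its nearest tables were 90.4-fold apart, with a log2 difference relative to the median gene of 8.42. The latter rests in part on few reads, since the mean of PDGFRB in HCT116* 8/3 c7 was 9.54 normalised reads. The related PDGFRA was listed in the RPE1 tables only, at 14.8 and 17.8 RPM. EGFR was at 95.3 and 101 RPM in HCT116 and 201 and 144 in RPE1, higher in both RPE1 tables, but its nearest tables were only 1.42-fold apart. IGF2R, which clears insulin-like growth factor 2 and sorts lysosomal enzymes, was at 211 and 208 RPM in HCT116 against 347 and 381 in RPE1, and passed only under the scaling by gene ratios. MET, the receptor of hepatocyte growth factor, was at 272 and 555 RPM in the HCT116 tables and 435 and 543 in the RPE1 tables, and IGF1R was at 117 and 46.8 RPM in HCT116 and 66.9 and 65.2 in RPE1; for both the lines overlapped.

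All 9 ligands that could be compared passed the criterion, 4 toward HCT116 and 5 toward RPE1, beside 17.6% and 8.51% of all genes. TGFA, the third EGF family ligand higher in HCT116, was at 61.3 and 63.6 RPM in HCT116 against 7.38 and 16.0 in RPE1, 3.84-fold apart in the nearest tables. PDGFB, a chain of platelet-derived growth factor, was at 57.3 and 14.8 RPM in the HCT116 tables and 1.77 and 3.86 in the RPE1 tables, and PDGFA was at 26.1 and 13.6 RPM in HCT116 and 5.402 and 6.65 in RPE1. Their nearest tables were 3.84-fold and 2.04-fold apart, respectively, and PDGFA passed only before the shift of the median gene was taken out. The HCT116 tables thus had the higher PDGFA and PDGFB, whereas PDGFC, described below, was higher in the RPE1 tables, as was PDGFRB.

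The ligands higher in RPE1 came from several families. FGF2, basic fibroblast growth factor, was at 7.93 and 6.73 RPM in HCT116 against 137 and 233 in RPE1, 17.3-fold apart in the nearest tables. FGF5, known for ending the growth phase of the hair follicle, was at 3.32 and 2.40 RPM in the HCT116 tables and 59.1 and 84.4 in the RPE1 tables, 17.8-fold apart. The lines thus differed in opposite directions in this family, with FGF2 and FGF5 higher in RPE1 and the receptors FGFR3 and FGFR4 higher in HCT116. PDGFC was at 46.3 and 37.2 RPM in HCT116 and 219 and 191 in RPE1 and HBEGF, a further EGFR ligand, was at 9.10 and 7.96 RPM in HCT116 against 21.7 and 25.5 in RPE1. NRG1, neuregulin, a ligand of ERBB3, was at 1.72 and 0.338 RPM in the HCT116 tables and 11.0 and 16.1 in the RPE1 tables. It was thus higher in the line in which ERBB3 was near the lower limit, although it was a low gene in all 4 tables. The mean of NRG1 in HCT116* 8/3 c7 was 6.78 normalised reads. The log2 differences relative to the median gene were 4.98 for FGF2, 5.01 for FGF5, 2.67 for PDGFC, 1.83 for HBEGF and 4.50 for NRG1.

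**Figure D2:**
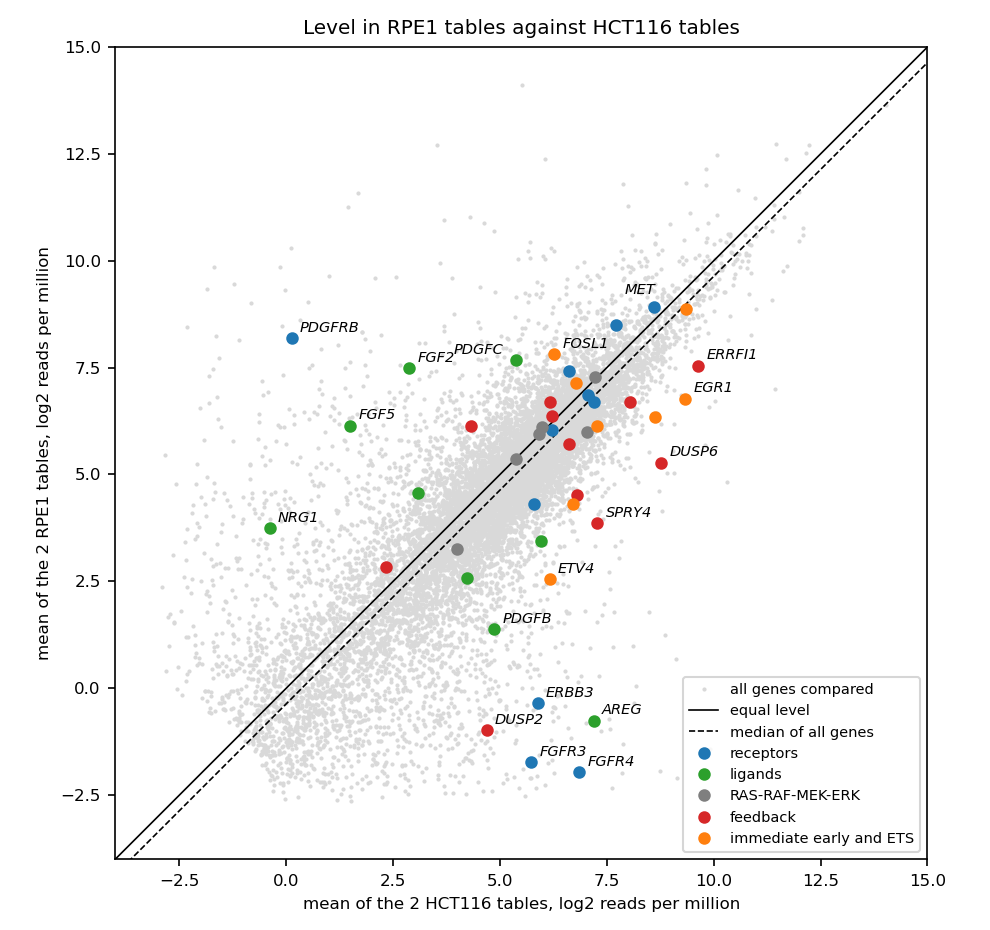
Level in the RPE1 tables against level in the HCT116 tables, each axis the mean over 2 tables of log2 RPM. Grey points are the 12764 genes compared, coloured points are the 45 members among them by role, the solid line marks equal level and the dashed line the median gene at -0.37. Receptors and ligands lie far off both lines on either side, with PDGFRB at 8.42 and FGFR4 at -8.45 relative to the median gene. Both values rest on few reads, with means under 10 for FGFR4 in the RPE1 tables and for PDGFRB in HCT116* 8/3 c7. Feedback and immediate early genes off the lines lie mostly on the HCT116 side.

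The core kinases and small GTPases had the narrowest range of log2 differences of all roles. Of these 6 genes, 1 passed the criterion, toward HCT116. That is 16.7%, beside 17.6% of all genes compared, so the count alone does not set the core apart. HRAS lay between 38.6 and 45.3 RPM over the 4 tables, and MAPK3, which encodes ERK1, between 56.8 and 63.6. The MEK genes were as even, with MAP2K1 at 59.2 and 67.3 RPM in HCT116 and 64.4 and 73.4 in RPE1 and MAP2K2 at 161 and 139 RPM in HCT116 against 160.4 and 152 in RPE1. BRAF was at 15.5 and 16.2 RPM in the HCT116 tables and 9.96 and 9.18 in the RPE1 tables. NRAS, at 133 and 131 RPM in HCT116 and 61.7 and 65.5 in RPE1, was 2.01-fold higher in HCT116 in the nearest tables, just past the 2-fold criterion, and did not pass with the shift of the median gene taken out. The member closest to the criterion on the other side was SPRED2, a feedback gene, at 1.68-fold. Across the 6 core genes the median log2 difference relative to the median gene was 0.37.

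Of the 11 feedback inhibitors, 6 were higher in HCT116 and 0 in RPE1, beside 17.6% and 8.51% of all genes. DUSP6, a cytoplasmic phosphatase that acts on ERK, was at 415 and 454 RPM in HCT116 against 57.7 and 25.9 in RPE1, 7.18-fold apart in the nearest tables. SPRY4, a Sprouty protein that dampens receptor signalling to RAS, was at 223 and 107 RPM in the HCT116 tables and 21.296 and 9.83 in the RPE1 tables, 5.03-fold apart. ERRFI1, an inhibitor that binds the kinase domain of EGFR family receptors, was at 778 and 813 RPM in HCT116 and 238 and 147 in RPE1, 3.27-fold apart. The nuclear phosphatase DUSP5 was at 84.5 and 146 RPM in HCT116 against 22.8 and 22.8 in RPE1. DUSP4 was at 248 and 278 RPM in the HCT116 tables and 114 and 92.9 in the RPE1 tables, and passed only before the shift of the median gene was taken out. DUSP2, a phosphatase best known from lymphocytes, was at 13.3 and 49.9 RPM in HCT116 and 0.394 and 0.643 in RPE1, with a mean under 10 normalised reads in RPE1 5/3 12/3. Relative to the median gene the log2 differences were -3.12 for DUSP6, -3.05 for SPRY4, -1.72 for ERRFI1, -1.92 for DUSP5, -0.99 for DUSP4 and -5.31 for DUSP2.

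The other 5 feedback genes did not pass. SPRY2, a Sprouty protein like SPRY4, was at 47.0 and 8.50 RPM in HCT116 against 89.9 and 55.0 in RPE1, so that both RPE1 tables lay above both HCT116 tables, with a nearest gap of 1.17-fold. SPRY1 was at 7.81 and 3.19 RPM in the HCT116 tables and 7.84 and 6.45 in the RPE1 tables. SPRED1 was at 86.5 and 64.3 RPM in HCT116 and 88.2 and 76.2 in RPE1, and SPRED2, which lay toward HCT116 like the 6 genes above but short of 2-fold, was at 92.5 and 102 RPM in HCT116 against 54.9 and 50.7 in RPE1. DUSP1, which also acts on the p38 and JNK kinases, was at 59.95 and 85.8 RPM in the HCT116 tables and 69.5 and 156 in the RPE1 tables.

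Among the 8 immediate early, ETS and other ERK-induced genes, 5 were higher in HCT116 and 1 was higher in RPE1. The shares of all genes were 17.6% and 8.51%. EGR1, whose upstream sequence is printed above, was at 566 and 734 RPM in HCT116 and 99.6 and 120.4 in RPE1, 4.70-fold apart in the nearest tables. IER3, an early response gene with a role in cell survival, was at 109.9 and 98.4 RPM in HCT116 against 20.5 and 19.3 in RPE1, 4.80-fold apart. The ETS factors ETV4 and ETV5, transcriptional targets of FGF and ERK signalling, both lay higher in HCT116. ETV4 was at 88.1 and 58.3 RPM in the HCT116 tables and 6.04 and 5.62 in the RPE1 tables, 9.64-fold apart, and ETV5 at 162 and 144 RPM in HCT116 and 70.5 and 69.1 in RPE1, 2.05-fold apart. FOS, a subunit of the AP-1 transcription factor, was at 294 and 535 RPM in HCT116 against 54.1 and 122 in RPE1, and the gap of its nearest tables was 2.40-fold. FOS and ETV5 passed only before the shift of the median gene was taken out.

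FOSL1, another AP-1 subunit, went the other way, with 76.3 and 78.0 RPM in the HCT116 tables and 226 and 224 in the RPE1 tables, 2.87-fold apart in the nearest tables and 1.91 on the log2 scale relative to the median gene. FOS and FOSL1, which can take the same place in AP-1, thus differed in opposite directions. JUN, their partner, was at 107 and 112 RPM in HCT116 and 104 and 193 in RPE1. PHLDA1 was at 598 and 721 RPM in HCT116 against 588 and 369 in RPE1. Neither JUN nor PHLDA1 passed.

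Taking feedback and immediate early genes as 1 group of 19 ERK-induced genes, 11 were higher in HCT116 and 1 was higher in RPE1, beside the same 17.6% and 8.51% of all genes. Under the scaling by gene ratios the counts were 8 and 1, beside 11.4% and 12.1%. The median log2 difference of the 19 genes relative to the median gene was -0.99 (RPE1 minus HCT116). Of 20 receptors and ligands, 8 were higher in HCT116 and 6 in RPE1, and 6 and 7 under the scaling by gene ratios, with a median of 0.19 relative to the median gene. No test was made of the difference between these groups, and the members were known to be expressed genes when they were listed.

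Levels of different genes were compared per length, as transcripts per 1000000 (TPM) computed from the means and the length of the canonical transcript, for genes at a mean of 10 or more. The percentile of a gene is its place among all such genes of its table. The median percentile of the ERK-induced genes was 86.3 in HCT116 5/4, 86.8 in HCT116* 8/3 c7, 72.9 in RPE1 5/3 12/3 and 69.7 in RPE1* 21/3. Receptors and ligands, when pooled, had medians of 52.1, 55.5, 54.0 and 57.8, close to the middle of their tables. Receptors alone had medians of 55.4, 58.2, 73.4 and 71.5, in the same order, and ligands alone 51.9, 35.1, 21.9 and 31.9. Among genes at a mean of 10 or more, receptors in the RPE1 tables thus stood slightly above the ERK-induced genes and ligands far below them. The place of the receptors there leaves out FGFR3 and FGFR4, which were under 10. Their median with these low genes kept is not given here. The ERK-induced genes stood above the pooled receptors and ligands by 34.2 and 31.3 points in the HCT116 tables. In the RPE1 tables they stood above this pool by 18.9 and 11.9 points. Without correction for length these gaps were 15.8, 12.7, 4.12 and 1.41 points, in the same order. The filter left out PDGFRB and NRG1 in HCT116* 8/3 c7, FGFR3, FGFR4, EREG and DUSP2 in RPE1 5/3 12/3, and FGFR3 and FGFR4 in RPE1* 21/3. With every listed gene kept, the gap in the RPE1 tables was 35.7 and 28.6 points, beside 31.8 and 33.0 in the HCT116 tables.

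The core genes had medians between 81.9 and 83.7 in the 4 tables, and MAP2K2 stood first among them in each, with 231, 194, 245 and 236 TPM. The leading feedback gene was ERRFI1 in 3 tables, with 621, 634 and 203 TPM, and DUSP1 in RPE1* 21/3, with 208 TPM. The leading immediate early gene was EGR1 in HCT116 5/4 with 446 TPM and FOS in HCT116* 8/3 c7 with 614 TPM. In the RPE1 tables it was FOSL1, with 349.5 and 352 TPM. The leading ligand was AREG in the HCT116 tables, with 166 and 501 TPM, followed by EREG with 158 and 312 TPM. In the RPE1 tables it was PDGFC, with 126 and 112 TPM. The leading receptor was FGFR4 in HCT116 5/4 with 120.2 TPM, PDGFRB in RPE1 5/3 12/3 with 173 TPM, and MET in HCT116* 8/3 c7 and RPE1* 21/3 with 196 and 213 TPM.

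**Figure D3:**
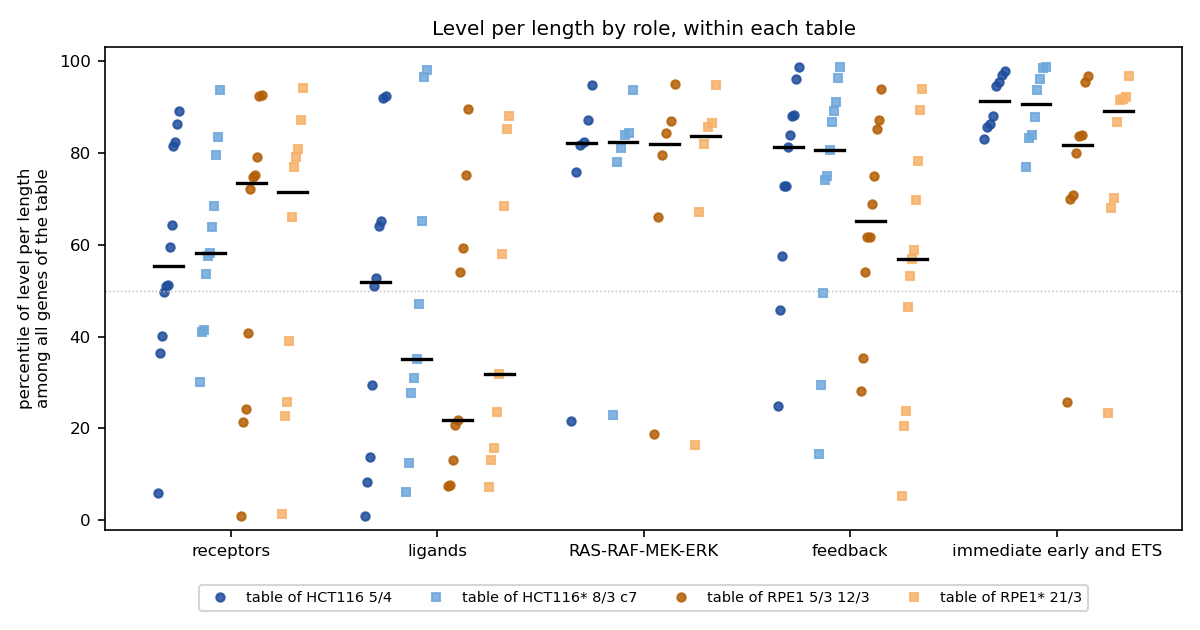
Percentile of the level per length of each member among all genes of its table whose mean reached 10, by role. Each point is 1 gene, colours and symbols mark the 4 tables and black bars are medians; members under 10 in a table are not drawn. Core and immediate early genes have medians between 81.8 and 91.3 in each table, and the medians of the feedback genes are 81.2 and 80.5 in the HCT116 tables and 65.2 and 56.9 in the RPE1 tables.

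A further 43 genes of the pathway that are not members were examined in the same way. Of the 36 that could be compared, 5 were higher in HCT116 (BTC, EGR2, EGR3, IER2 and JUNB) and 9 in RPE1 (AXL, DUSP10, EGF, FGF1, FOSL2, GAB1, KDR, NF1 and SPRED3), which is 13.9% and 25.0%, beside 17.6% and 8.51% of all genes. Under the scaling by gene ratios the counts were 4 and 12, beside 11.4% and 12.1%, and JUNB no longer passed. Means were under 10 normalised reads for FGF1 and KDR in both HCT116 tables and for EGR2 in RPE1* 21/3. The differences of these genes thus rest on few reads. HGF, IGF1, FLT1 and KIT were listed in no table. Among the immediate early genes of this list, EGR2, EGR3, IER2 and JUNB passed toward HCT116 and FOSL2 toward RPE1, while FOSB and JUND did not pass. IER2 was at 240.3 and 351 RPM in the HCT116 tables and 68.4 and 82.8 in the RPE1 tables, and FOSL2 was at 44.7 and 45.8 RPM in HCT116 and 147 and 131 in RPE1. NF1, which speeds the hydrolysis of GTP by RAS, was at 35.7 and 31.6 RPM in HCT116 against 156 and 137 in RPE1. AXL, a receptor tyrosine kinase of mesenchymal cells, was at 80.5 and 67.4 RPM in the HCT116 tables and 1116 and 1429 in the RPE1 tables.

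The tables of one parental line were also set against each other. Within HCT116, 7 of 47 members whose average mean reached 10 were at least 2-fold higher in HCT116 5/4, beside 3.72% of all genes, and 4 were at least 2-fold higher in HCT116* 8/3 c7, beside 1.97%. Gained chromosome and H2B-GFP cannot be told apart between the tables of a line, nor, for HCT116, can the stock of the parental line. SPRY2 stood 5.54-fold higher in HCT116 5/4, with 47.0 against 8.50 RPM, and SPRY1 and SPRY4 lay the same way, by 2.45-fold and 2.08-fold. PDGFB was 3.86-fold and IGF1R 2.49-fold higher in HCT116 5/4. PDGFRB and NRG1 were 5.24-fold and 5.08-fold higher there too, although both had means under 10 normalised reads in HCT116* 8/3 c7.

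The members higher in HCT116* 8/3 c7 included both neighbouring EGFR ligands. AREG was 3.09-fold higher there, with 256 against 82.9 RPM, and EREG was 2.02-fold higher, with 596 against 295. DUSP2 was 3.76-fold and MET 2.04-fold higher in the same table.

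Within RPE1, 2 of 44 members were at least 2-fold higher in RPE1 5/3 12/3, beside 1.89% of all genes, and 4 were at least 2-fold higher in RPE1* 21/3, beside 2.10%. DUSP6 and SPRY4, feedback genes that also separated the parental lines, were 2.23-fold and 2.17-fold higher in RPE1 5/3 12/3. PDGFB, TGFA, DUSP1 and FOS were 2.19-fold, 2.16-fold, 2.25-fold and 2.26-fold higher in RPE1* 21/3. All 4 were close to the criterion, and with the deposited means left unscaled 0 members passed toward RPE1* 21/3. SPRY4 was the only member that passed toward the table without H2B-GFP in both parental lines.

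Some members lie on the gained chromosomes. Over 578 genes of chromosome 5, the median log2 difference of HCT116 5/4 over HCT116* 8/3 c7 was 0.45, with quartiles of 0.088 and 0.80, beside -0.015 on chromosomes gained in neither line. Of the 6 members there, 4 lay outside these quartiles and 2, FGFR4 and HBEGF, within them, with PDGFRB at 2.39, SPRY4 at 1.05, FGFR4 at 0.78, HBEGF at 0.19, EGR1 at -0.38 and DUSP1 at -0.52. Over 449 genes of chromosome 8 the median was -0.15, toward the table of the line that gained it. The members on chromosome 8 were DUSP4 at -0.16, FGFR1 at 0.87 and NRG1 at 2.35, so that FGFR1 and NRG1 lay opposite to the chromosome. A table mean contains the parental libraries as well, so these differences are smaller than those between an aneuploid line and its parental line would be for a gene that follows its copy number.

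In the RPE1 tables the 607 genes of chromosome 5 had a median of 0.29 and the 678 genes of chromosome 12 had a median of 0.28, in log2 of RPE1 5/3 12/3 over RPE1* 21/3. The other chromosomes had a median of -0.026. Of the members on chromosome 5, SPRY4 was at 1.12, PDGFRB at 0.73, HBEGF at -0.23, EGR1 at -0.27 and DUSP1 at -1.17. SPRY4 and PDGFRB lay above the median of chromosome 5 in both parental lines, and DUSP1 and EGR1 lay below 0 in both, on a chromosome that was gained in both HCT116 5/4 and RPE1 5/3 12/3. Of the members on chromosome 12, DUSP6 was at 1.16, PHLDA1 at 0.67 and ERBB3, which was near the lower limit, at -0.51. The 123 genes of chromosome 21 had a median of -0.41 and included no member.

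**Figure D4:**
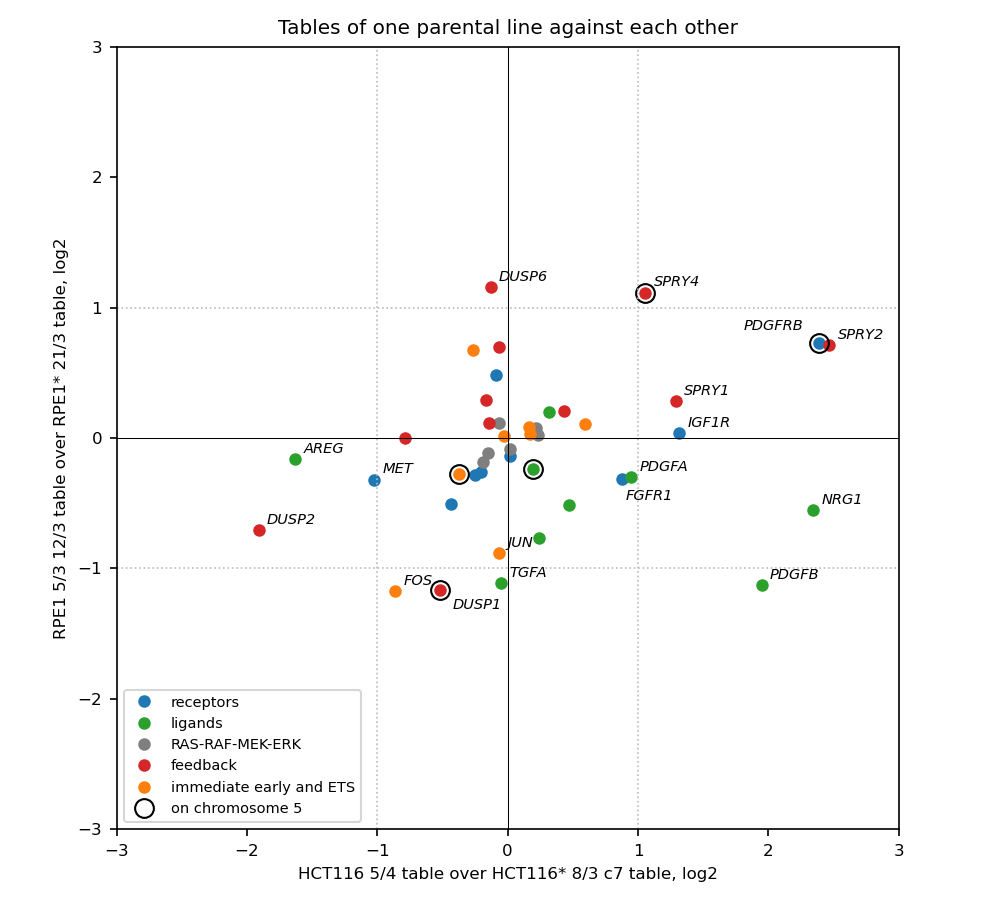
Difference between the 2 tables of each parental line, with log2 of HCT116 5/4 over HCT116* 8/3 c7 on the horizontal axis and log2 of RPE1 5/3 12/3 over RPE1* 21/3 on the vertical axis. Each point is 1 member, coloured by role, dotted lines mark 2-fold and rings mark members on chromosome 5, which is gained in the first table of each pair. SPRY4 lies past 2-fold on both axes, at 1.05 and 1.12, and most members lie within 2-fold on both.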

How the data were processed

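Per the labels and the methods of the study, total RNA of each library was made into cDNA and sequenced as single reads; whether counting used strand was not given in the sources used here. The submitters' processing notes name cutadapt, TopHat2 2.0.10, featureCounts 1.4.3, DESeq2 and build hg19. Each deposited table holds, per gene, a mean and 5 columns of the authors' own comparison (fold change, its error, statistic, p-value and adjusted p-value). Those 5 columns were not used. The value used is a normalised signal, which the authors made as the mean of read counts divided by size factors over the 6 libraries of the table. The depth of single libraries is unknown, so no counting interval is given; the summed means were 1.93e+07, 2.01e+07, 2.30e+07 and 1.89e+07.

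Means were scaled to 1000000 per table. Lengths and positions came from GENCODE 44 on GRCh37 (94.4% of genes placed, 1480 by an older symbol), upstream windows from RefSeq on GRCh38.p14. Counts of genes used a minimum mean of 10 and 2-fold, with Python 3.11.15, pandas 2.3.3 and numpy 2.4.6. The criterion was checked on simulated data under the scaling by gene ratios only. That check did not cover the main scaling or the shift of the median gene. Alternatives were another scaling, minimum and fold, the tables with or without H2B-GFP only, and other lengths. The members, roles and other gene lists were chosen with earlier results of these data known. Values in all 4 tables are given for members past 2-fold between or within parental lines and for the highest member of each role, and other members were added to account for the list. Values of some of the other pathway genes are not reported here.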

Additional observations from a re-analysis of the deposited data

How the results depend on the processing

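The tables limit what can be said: each value is a mean over 6 libraries, so no replicate could be left out, no error can be given, and levels near the lowest listed mean (1.98 to 3.36 normalised reads) rest on few reads. No paired analysis was possible because no value of a single library was used and no result comes from a test. None of the 27 members past 2-fold between the lines changed direction under any alternative run; of the others, 6 (FGFR1, IGF1R, MET, HRAS, MAP2K2 and JUN) changed sign under at least 1. Of the 27, 15 passed the same way under every alternative run, and 21 under every alternative except 4-fold. With tables scaled by gene ratios, 1455 of all genes were higher in HCT116 and 1546 in RPE1, against 2251 and 1086 before, and receptors and ligands turned from 8 and 6 to 6 and 7. At 1.5-fold, 3917 of all genes were higher in HCT116 and 1669 in RPE1. At 4-fold these were 778 and 496, with 10 members, 4 receptors and ligands and 6 ERK-induced genes higher in HCT116 and 0 ERK-induced genes higher in RPE1. With the H2B-GFP tables only, 12 ERK-induced genes were higher in HCT116 and 3 in RPE1, beside 25.0% and 12.6% of all genes. With unscaled means, 0 members were 2-fold higher in RPE1* 21/3. The percentile gap between ERK-induced genes and receptors and ligands was 15.8, 12.7, 4.12 and 1.41 points in the 4 tables without correction for length, and 35.7 and 28.6 in the RPE1 tables without the filter on low values. With the length of all exons merged, an alternative chosen after seeing the data, it was 31.4, 40.8, 24.1 and 14.45 points in the 4 tables. The size of the gap thus depended on the length correction, without which it was still larger in the HCT116 tables. Without the filter it was 31.8 and 33.0 in the HCT116 tables, so the larger gap in HCT116 depended on the filter.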

Other observations

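The following genes were chosen after their values were seen. Several immediate early genes lay higher in the H2B-GFP table of both parental lines. FOSB, an AP-1 subunit, was at 49.5 and 199 RPM in HCT116 and 6.43 and 36.4 in RPE1, which is 4.03-fold higher in HCT116* 8/3 c7 than in HCT116 5/4 and 5.65-fold higher in RPE1* 21/3 than in RPE1 5/3 12/3. FOS lay the same way by 1.82-fold in HCT116 and 2.26-fold in RPE1, and DUSP1, counted above as a feedback gene, by 1.43-fold and 2.25-fold. EGR1 differed less, by 1.30-fold and 1.21-fold. EGR2 was 2.62-fold higher in HCT116* 8/3 c7 but 2.96-fold higher in RPE1 5/3 12/3, where its level was under 1 RPM. EGR3 split the same way, 5.07-fold higher in HCT116* 8/3 c7 and 1.39-fold higher in RPE1 5/3 12/3, as did PHLDA1 by smaller folds in HCT116. IER3, ETV4 and ETV5 lay higher in the table without H2B-GFP in both parental lines, by at most 1.51-fold. H2B-GFP, the gained chromosomes and, for HCT116, the parental stock cannot be told apart in these differences.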
